A study of Mus musculus with 27 samples.

Results

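The transcripts of 3 genes that touch the genetic tools of this study were followed through all of its libraries: Rpl22, the ribosomal protein that carries the tag, Rpl22l1, its paralog, and Esr1, the estrogen receptor alpha gene, whose ligand-binding part is used in tamoxifen-inducible Cre. They were found by their Ensembl gene IDs and are 3 of the 45195 genes in the count table. They were chosen by these roles, with earlier measured levels of the genes in these same libraries known and with no threshold on a value, so their levels and differences are given as descriptions, with standard deviations (SD) and standard errors (SE) and without p-values.

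The study followed adult neurogenesis in male C57BL/6 mice of 8 to 12 weeks. The subventricular zone (SVZ), the germinal layer along the lateral ventricle, gave the neural stem cells (NSC) and the early neuroblasts (ENB). The olfactory bulb (OB) gave the late neuroblasts (LNB) and the Neuron group. NSC came from TiCRY mice, in which Tlx (Nr2e1) drives CreER, and ENB, LNB and, by their descriptions, Neuron from mice in which Dcx drives CreER (DiCRY). Both lines also carried Rpl22.HA, the RiboTag allele that adds an HA epitope to Rpl22 after recombination, and an eYFP reporter, and mice were given 2 to 3 doses of tamoxifen at 200 mg per kg by gavage. Total mRNA came from 200 to 500 sorted eYFP-positive cells of 1 to 2 mice, with 3 libraries per stage. For ribosome-bound mRNA, tagged ribosomes were precipitated with anti-HA from homogenate of unsorted tissue, and LNB has 3 such libraries and each other stage 2. The controls, 3 from each tissue, went through the same immunoprecipitation and are described as without HA. Their descriptions differ: SVZ control 1 is marked TICRY and minus, SVZ controls 2 and 3 are marked Cre-, OB controls 1 and 2 DICRY and minus, and OB control 3 minus with the tag of the Neuron libraries. Which allele each control lacked is not given in the sources used here. Each Cre is active only where its promoter is active, so stage and driver line cannot be told apart between NSC and the later stages.

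Rpl22 is a protein of the large ribosomal subunit, and Rpl22l1 is a close relative that can take its place in the ribosome. In RiboTag mice Cre exchanges the last exon of Rpl22 for a copy that ends in the HA epitope, so that tagged ribosomes, and the mRNAs on them, can be pulled out of a tissue without sorting. CreER is a fusion of Cre recombinase with a mutated ligand-binding domain of the estrogen receptor that answers to tamoxifen and not to estradiol. Chaperones such as Hsp90 hold the unliganded fusion in the cytoplasm, and tamoxifen releases it to the nucleus. A transcript of the fusion holds receptor sequence, so its reads can be counted to Esr1 where the species and the aligner's settings allow. The labels do not state from which species the receptor part came.

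In the RefSeq annotation of GRCm38.p6, Rpl22 (ENSMUSG00000028936) lies at chr4:152324436-152334082, Rpl22l1 (ENSMUSG00000039221) at chr3:28805508-28807424 and Esr1 (ENSMUSG00000019768) at chr10:4611989-5005633. All 3 are protein-coding. Many mRNAs of ribosomal proteins begin with an unbroken run of C and T, the 5′ terminal oligopyrimidine (TOP) start, through which growth signalling sets their translation. The windows of 50 bases around the annotated starts, 25 on either side on the gene's own strand, are shown because the paralogs differ in them. Capitals mark the longest run of C and T, the motif searched, on that strand, or the first of equally long runs.
Rpl22l1, chr3:28805483-28805532, + strand: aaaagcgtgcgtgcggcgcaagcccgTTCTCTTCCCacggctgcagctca
Rpl22, chr4:152325701-152325750, + strand: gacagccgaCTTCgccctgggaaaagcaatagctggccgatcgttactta
Rpl22, chr4:152324411-152324460, + strand: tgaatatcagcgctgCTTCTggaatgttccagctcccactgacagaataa
The run of Rpl22l1 was 10 bases long and began 1 base past the annotated start. In the 2 windows of Rpl22 the longest runs were 4 and 5 bases. A run of 8 or more was present in 20 of 33 matched large-subunit ribosomal protein genes (60.6%, best window per gene) and in 6464 of all 32851 windows (19.7%). The 2 shares are not alike, since the first takes the best of a gene's windows and the second counts single windows. The windows also hold 25 bases before the annotated start, which are not part of the annotated mRNA. The match is a description of these letters in these windows.

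Library totals were 5225929 to 15994635 counts for total mRNA, 6325479 to 13316334 for the ribosome-bound libraries and 5960357 to 9120659 for the controls. Levels below are CPM, counts relative to the library's total count, scaled with TMM, a normalization for library composition, over all 27 libraries. Cell labels were compared with markers. Summed stem cell and astrocyte-lineage markers (8 of 8 present) reached 3718 to 4224 CPM in NSC total mRNA and 505 to 674 in ENB, and summed neuroblast markers (6 of 6) 10652 to 10980 CPM in ENB and 1152 to 1335 in Neuron total mRNA. Mature neuron markers (6 of 6) lay between 6190 and 9976 CPM in Neuron total mRNA. In LNB total mRNA the stem cell and astrocyte-lineage sum spread from 1013 to 7919 CPM. The immunoprecipitates of whole tissue held RNA of other cells: oligodendrocyte markers (5 of 5) summed to 18809 to 19272 CPM in ENB ribosome-bound mRNA, 7187 to 7992 in NSC and 16148 to 20859 in the SVZ controls, against 973 to 2590 in ENB total mRNA. Libraries of sorted cells held markers of other types too. The oligodendrocyte sum was 1714 to 7225 CPM in Neuron total mRNA, above the 406 to 716 CPM of Neuron ribosome-bound mRNA. The neuroblast sum was 3267 to 3952 CPM in NSC total mRNA. In bulk RNA, fewer cells of a type and less RNA per cell cannot be told apart.

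Esr1 was counted in every library of the total and ribosome-bound groups and was close to absent from most controls. In total mRNA it stood at 12.1, 11.6 and 10.5 CPM in NSC, at 93.5, 126 and 100 CPM in ENB, at 96.0, 97.9 and 41.2 CPM in LNB and at 18.2, 17.9 and 11.5 CPM in Neuron, in the order of replicates 1 to 3. ENB and LNB were high and overlapped each other, while all NSC and Neuron libraries lay below all of them. In ribosome-bound mRNA Esr1 stood at 9.62 and 8.85 CPM in NSC, 22.0 and 41.8 in ENB, 71.9, 85.3 and 90.6 in LNB, and 57.7 and 53.8 in Neuron. These 4 groups did not overlap, and their order was NSC, ENB, Neuron and LNB. The SVZ controls held 0, 44 and 9 reads of Esr1 (0, 6.61 and 1.25 CPM) and the OB controls 4, 8 and 0 (0.547, 1.08 and 0 CPM). The exact 95% Poisson interval of SVZ control 2 ran from 4.81 to 8.88 CPM and that of OB control 2 from 0.466 to 2.13 CPM, both covering counting error only. The 0 reads in SVZ control 1 and OB control 3 allow up to 0.481 and 0.340 CPM by the floor of 3 reads, and 0.591 and 0.418 CPM by the same Poisson interval. SVZ control 2, marked Cre-, stood apart from the other controls. Its interval reached those of both NSC ribosome-bound libraries, from 7.34 to 12.4 and from 6.84 to 11.3 CPM. It also reached those of NSC total replicate 3 and Neuron total replicate 3, which began at 8.47 and 8.77 CPM.

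**Figure D1:**
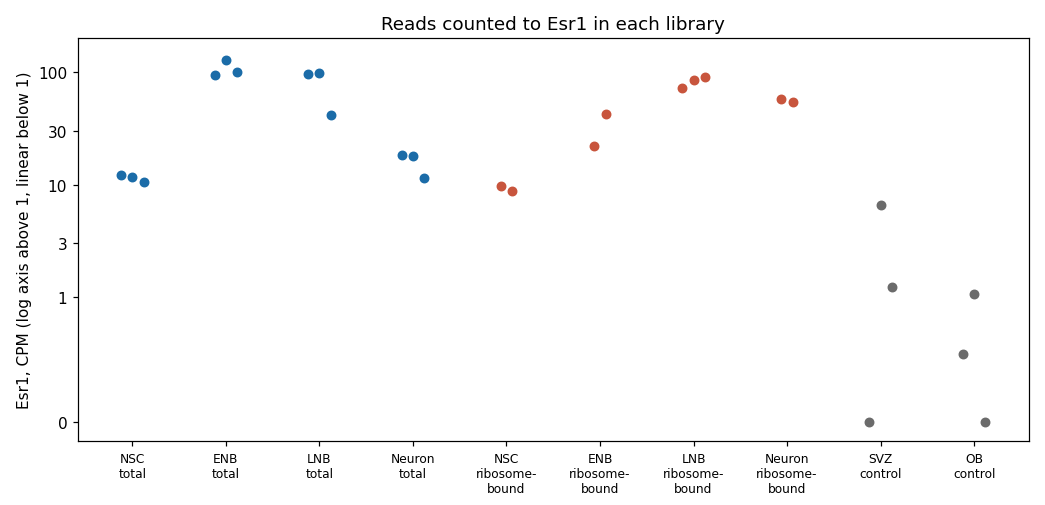
Esr1 in CPM (vertical axis, logarithmic above 1 and linear below) for each library of the 10 groups, 1 point per library; blue marks total mRNA, red ribosome-bound mRNA and grey the no-HA controls. ENB and LNB total mRNA and LNB ribosome-bound mRNA sit between 41.2 and 126 CPM, and 5 of the 6 controls are at or under 1.25 CPM.

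In total mRNA Esr1 was higher in both neuroblast stages than in NSC and Neuron. In total mRNA its log2 fold change was 3.24 ± 0.34 (SE) from NSC to ENB, -0.47 ± 0.31 from ENB to LNB and -2.35 ± 0.33 from LNB to Neuron, from edgeR fits on the raw counts with 3 libraries per group. The labels give each library a second index sequence, which several libraries share. Within the indexes that held both groups, the difference from NSC to ENB was 3.01 and 3.52, that from ENB to LNB -0.08 and -0.98, and that from LNB to Neuron -2.6 in the 1 index with both. In ribosome-bound mRNA the changes were 1.78 ± 0.79, 1.40 ± 0.71 and -0.58 ± 0.68 for the same steps, with 2.15 and 1.93 within an index for the first and second of them. For the step from LNB to Neuron no index held both groups, and with the second index as a term the value was -1.80.

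In the fits against all controls of a tissue the distance was largest in the olfactory bulb. LNB ribosome-bound mRNA stood at 82.6 ± 9.62 CPM (SD, n = 3) against 0.542 ± 0.540 (n = 3) in the OB controls, a log2 fold change of 7.36 ± 0.89 that ranked 1 of 19066 genes. Neuron ribosome-bound mRNA, at 55.7 ± 2.79 CPM (n = 2), differed from the same controls by 6.78 ± 0.90 and ranked 4. ENB ribosome-bound mRNA differed from the SVZ controls by 3.55 ± 0.76, rank 56, and NSC ribosome-bound mRNA by 1.77 ± 0.77, rank 996. Without SVZ control 2 these were 5.59 and 3.75, and without SVZ control 1 they were 2.98 and 1.20. Within an index the LNB difference was 6.39, with 3 LNB libraries and 2 controls. By the same measure NSC was at 5.24, ENB at 7.39 and Neuron at 7.87, so ENB was not nearer to its control than LNB. The values of NSC, ENB and Neuron depend on a small count added before the logarithm. For NSC, ENB and Neuron the only control of the same index held 0 reads of Esr1 (SVZ control 1 or OB control 3). Against the floor of 3 reads in that control, Esr1 was at least 19.2-fold higher in NSC, 87.0-fold higher in ENB and 169.7-fold higher in Neuron, with 2, 1 and 1 libraries. The 1 ENB library there, at 41.8 CPM, was the higher of the 2, and the other stood at 22.0 CPM. With the expected counts in place of the raw counts the LNB and Neuron values were 5.55 and 5.01. Over the 6 other settings the NSC value ran from 0.58 to 3.07 and the ENB value from 2.3 to 4.86. NSC and ENB were compared with the same SVZ controls, and LNB and Neuron with the same OB controls.

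Relative to total mRNA of the same stage, ribosome-bound Esr1 changed sign between stages. The log2 difference of ribosome-bound against total mRNA was -0.34 ± 0.34 in NSC, -1.63 ± 0.35 in ENB, 0.13 ± 0.29 in LNB and 1.90 ± 0.33 in Neuron. The NSC and the ENB ribosome-bound libraries lay below all total libraries of their stage, the LNB libraries overlapped, and both Neuron ribosome-bound libraries lay above all Neuron total libraries. In NSC the border was narrow, at 9.62 against 10.5 CPM, and the Poisson intervals of those 2 libraries overlapped. The values in ENB rest on libraries that differ: without ENB ribosome-bound replicate 1 the difference was -1.23 and without replicate 2 it was -2.15. The libraries of the 2 kinds also differ in source, sorted cells on 1 side and whole tissue on the other. In Neuron, the neuroblast marker sum was 1738 to 1862 CPM in ribosome-bound and 1152 to 1335 CPM in total mRNA, and the mature neuron sum 14256 to 14369 against 6190 to 9976 CPM. Their part in the difference of Esr1 was not tested.

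Dcx, the microtubule-binding protein of migrating neuroblasts, and Nr2e1, the orphan nuclear receptor of adult neural stem cells, drive the 2 CreER transgenes. Esr1 was set against them in each library. In ENB, LNB and Neuron total mRNA and in ENB and LNB ribosome-bound mRNA, Esr1 was 4.83 to 12.4 CPM per 100 CPM of Dcx, although Dcx itself ranged from 146 to 1674 CPM. In Neuron ribosome-bound mRNA the ratio was higher, 25.6 and 21.6. In NSC, from the Nr2e1 line, the same ratio was 6.25, 8.28 and 7.38 in total and 11.5 and 6.23 in ribosome-bound mRNA, inside that range. In the OB controls it was 0.178, 0.306 and 0 while Dcx stood at 308, 353 and 302 CPM, more than in either Neuron group. The SVZ controls had Dcx at 33.0, 57.6 and 45.0 CPM and Esr1 ratios of 0, 11.5 and 2.77.

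**Figure D2:**
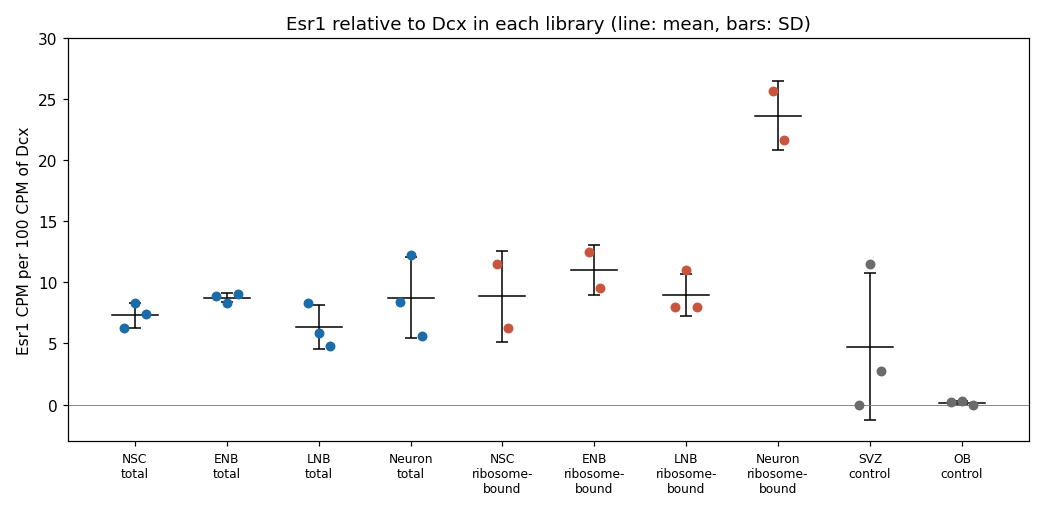
Esr1 CPM per 100 CPM of Dcx (vertical axis) in each library of the 10 groups, 1 point per library, with the group mean as a line and the SD as bars. The OB controls lie at 0 to 0.306 and the Neuron ribosome-bound libraries at 21.6 and 25.6, outside the 4.83 to 12.4 of the other total and ribosome-bound groups, NSC included.

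In NSC, where Nr2e1 drives Cre, Esr1 was 5.46, 4.37 and 3.15 CPM per 100 CPM of Nr2e1 in total mRNA and 8.80 and 5.36 in ribosome-bound mRNA. Nr2e1 stood at 222 to 332 CPM in NSC total mRNA. The SVZ controls had Nr2e1 at 24.8, 9.77 and 18.0 CPM, with Esr1 ratios of 0, 67.7 and 6.92, of which the highest comes from control 2. Across the 10 group means of log2 CPM, Pearson's r was 0.676 between Esr1 and Dcx and -0.221 between Esr1 and Nr2e1. These correlations span 2 driver lines and 3 kinds of library and are descriptions. The 3 genes most like Esr1 over the same means, among 20682 genes, were Fam172a (r = 0.960), Pdcl (0.958) and Ube2g1 (0.950).

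The authors deposited 2 counts per gene, raw counts and RSEM's expected counts, and Esr1 differed between them in a way the other 2 genes did not. The ratio of raw to expected count was divided by the ratio of the median gene of the same library, among genes with at least 5 expected counts. For Esr1 this relative ratio lay between 1.68 and 2.94 in all 21 libraries of the total and ribosome-bound groups, above 92.2% to 96.8% of the genes of each library. In the 6 controls it was 0, 0.976 and 1.04 in SVZ and 0.756, 0.697 and 0 in OB, so the groups did not overlap. The control values rest on few reads, from 1 to 73 expected counts. In SVZ control 2, with 44 raw and 73 expected counts, Esr1 stood above 43.4% of genes. Rpl22 lay between 0.833 and 1.20 in all 27 libraries, and Rpl22l1 between 0.871 and 1.04. What set the 2 counts apart was not tested.

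**Figure D3:**
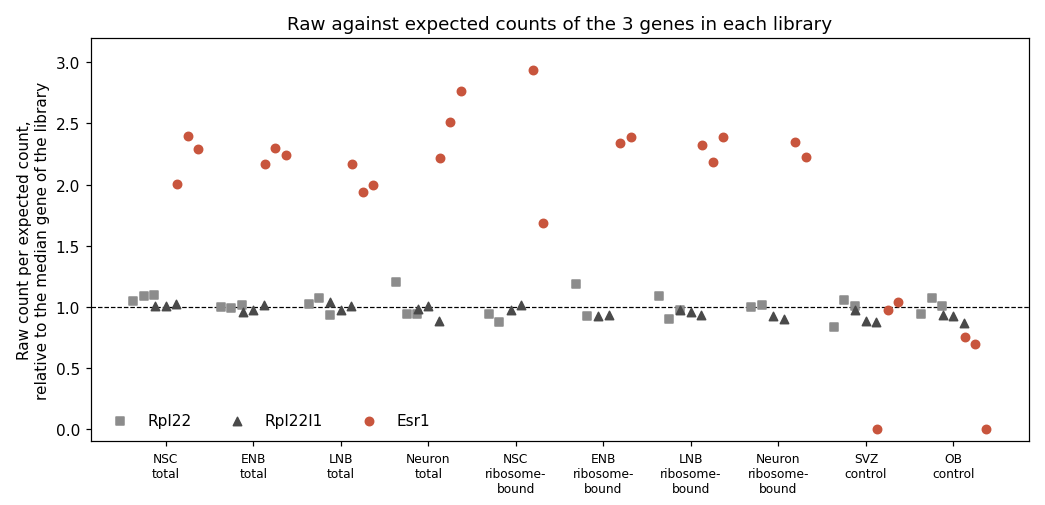
Raw count per expected count relative to the median gene of the same library (vertical axis; dashed line, 1) for Rpl22 (squares), Rpl22l1 (triangles) and Esr1 (circles) in each of 27 libraries. Esr1 lies between 1.68 and 2.94 in the total and ribosome-bound groups and between 0 and 1.04 in the controls, while both paralogs stay near 1.

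Other genes of estrogen signalling were measured in the same libraries. Of 5 estrogen and related receptors, Esr2, the second classical estrogen receptor, never exceeded 2.20 CPM, and the orphan receptor Esrrb never exceeded 5.96 CPM. The other 3 could be tested, and 0 of them passed in any of 7 comparisons, 3 steps in total mRNA and 4 immunoprecipitates against their controls (edgeR's quasi-likelihood test, Benjamini-Hochberg adjustment over all genes, threshold 0.05). At an unadjusted p under 0.05 the counts were 1, 1 and 2 in the steps and 0, 0, 0 and 1 in NSC, ENB, LNB and Neuron against control. DESeq2 called 1 in each of the 3 steps in total mRNA. From LNB to Neuron the edgeR count was 1 without either of 2 libraries of the 6, LNB total replicate 2 among them. In Neuron against control it was 1 without Neuron ribosome-bound replicate 1. Among all genes, 10.1% passed from NSC to ENB (4.95% higher and 5.12% lower), 3.77% from ENB to LNB (2.8% higher and 0.966% lower) and 14.7% from LNB to Neuron (5.33% higher and 9.34% lower). The shares were 15.3%, 1.52%, 10.1% and 27.4% in NSC, ENB, LNB and Neuron ribosome-bound mRNA against control, of which 6.59%, 0.813%, 3.06% and 15.7% were lower. Esrrg was at 2.32 ± 0.81 from NSC to ENB (adjusted p = 0.091, edgeR). Esrrg, an orphan receptor of neurons, ranged from 0.331 to 62.3 CPM and overlapped between the OB controls (29.5 to 41.9 CPM) and LNB ribosome-bound mRNA (25.3 to 35.1 CPM). In Neuron ribosome-bound mRNA Esrrg stood above those controls, at 56.2 to 62.3 CPM (0.76 ± 0.50, adjusted p = 0.27, edgeR). Esrra, which controls mitochondrial genes, stayed between 10.8 and 41.7 CPM, and Gper1, a membrane receptor for estrogen, between 0 and 15.2 CPM. Esrra was at 32.3 to 41.7 CPM in Neuron ribosome-bound mRNA and 20.5 to 22.7 in the OB controls (0.84 ± 0.32, adjusted p = 0.058, edgeR). Gper1 overlapped between these groups, at 0 to 5.04 and 1.62 to 2.74 CPM.

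Genes that estrogen receptors commonly induce were also followed. Of 8 such genes 6 were tested. In the comparisons with control 0 passed in NSC, ENB and LNB. There 0, 0 and 1 had an unadjusted p under 0.05 in edgeR, and DESeq2 called 0, 0 and 1. In Neuron 1 passed, Igfbp4, which was lower, beside 15.7% of all genes that were lower. It fell by 1.03 ± 0.31 on the log2 scale (adjusted p = 0.025, edgeR) and is named after its value was seen. It did not pass without OB control 1 or without either Neuron ribosome-bound library. Pgr, the progesterone receptor, ranged from 10.4 to 12.3 CPM in NSC ribosome-bound mRNA and from 24.1 to 26.0 CPM in the SVZ controls (log2 fold change -1.16 ± 0.61, adjusted p = 0.20, edgeR). Greb1, a coactivator of the receptor, ranged from 5.98 to 42.4 CPM in LNB total mRNA and from 0 to 1.17 CPM in NSC total mRNA, and its changes did not pass between consecutive stages. Of 9 nuclear receptor coregulators 1 was lower in NSC ribosome-bound mRNA than in the control, beside 6.59% of all genes that were lower. It was Ncoa3 (-1.41 ± 0.29, adjusted p = 0.0056, edgeR), also named after its value was seen. In ENB, LNB and Neuron 0 passed (0, 3 and 2 at an unadjusted p under 0.05 in edgeR, and 0 in each called by DESeq2). The NSC count was 0 without NSC ribosome-bound replicate 2 and 2 without replicate 1. The coactivator Ncoa1 was at 0.46 ± 0.20 and the corepressor Ncor1 at -0.22 ± 0.22 in LNB against control (adjusted p = 0.16 and 0.56, edgeR).

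In total mRNA 0, 0 and 1 coregulators passed in edgeR over the 3 steps from NSC to Neuron (4, 0 and 2 at an unadjusted p under 0.05, and 2, 0 and 2 called by DESeq2). The chaperones gave 1, 0 and 1 (1, 2 and 2 unadjusted, and 1, 2 and 4 by DESeq2) and the estrogen-induced genes 0, 0 and 1 (2, 2 and 2 unadjusted, and 2, 1 and 2 by DESeq2). From NSC to ENB the chaperone that passed was lower, beside 5.12% of all genes. From LNB to Neuron the coregulator was lower, beside 9.34% of all genes, and the chaperone and the estrogen-induced gene were higher, beside 5.33%. At that last step the coregulator count was 0 without LNB total replicate 2. The chaperone count was 0 without LNB total replicate 1 or 3 or Neuron total replicate 2 or 3, and 2 without LNB total replicate 2. The estrogen-induced count was 2 without Neuron total replicate 1 and 0 without any other of the 6 libraries. From ENB to LNB the estrogen-induced count was 1 without LNB total replicate 2.

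The chaperones that hold the unliganded receptor rose against the control in 3 of the 4 immunoprecipitates. Of 7 tested, 6 rose in LNB, 5 in Neuron, 3 in NSC and 0 in ENB (2 there at an unadjusted p under 0.05, and 2 called by DESeq2), beside 7%, 11.6%, 8.75% and 0.708% of all genes that rose in those comparisons. Hsp90aa1, the inducible cytosolic Hsp90, was at 2045 to 2307 CPM in LNB ribosome-bound mRNA and at 508 to 1315 CPM in the OB controls, a log2 fold change of 1.22 ± 0.32 (adjusted p = 0.026, edgeR). In Neuron it changed by 1.37 ± 0.34 (adjusted p = 0.0090, edgeR). Hsp90ab1, the constitutive form, changed by 1.08 ± 0.26 in LNB and 1.15 ± 0.28 in Neuron (adjusted p = 0.020 and 0.0077, edgeR). In NSC the 3 genes that rose were Fkbp4, Ptges3 and Stip1, all Hsp90 cochaperones, named after their values were seen. The LNB count was 0 without LNB ribosome-bound replicate 2 and 0 without replicate 3. The Neuron count was 3 without either Neuron ribosome-bound library, and the NSC count fell to 1 without NSC ribosome-bound replicate 2 and to 2 without replicate 1, SVZ control 2 or SVZ control 3. These chaperones are abundant in all cells. In the olfactory bulb mature neuron markers moved with them. Their sum was 8048 to 8651 CPM in LNB and 14256 to 14369 CPM in Neuron ribosome-bound mRNA, against 5356 to 7810 CPM in the OB controls. In NSC the same sum went the other way, at 2811 to 3125 CPM against 3388 to 4204 CPM in the SVZ controls. The part of neuronal content in the rise was not tested.

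Rpl22, the gene that carries the tag, was not higher in immunoprecipitates as a rule. In total mRNA it stood at 63.2, 74.2 and 77.0 CPM in NSC, at 111, 128 and 94.6 in ENB, at 61.5, 100.0 and 79.6 in LNB and at 41.3, 26.3 and 54.5 in Neuron. ENB was the highest group, above all NSC libraries, and Neuron lay below all libraries of the other stages. In ribosome-bound mRNA Rpl22 stood at 51.2 and 39.3 CPM in NSC, 32.6 and 20.0 in ENB, 48.9, 48.6 and 45.8 in LNB and 33.6 and 46.4 in Neuron. ENB was the lowest of these groups, below all NSC, LNB and Neuron libraries. The SVZ controls stood at 42.2, 53.1 and 47.3 CPM and the OB controls at 34.9, 33.6 and 26.3. The 10 groups thus span a much smaller range for Rpl22 than for Esr1.

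From NSC to ENB and from ENB to LNB, Rpl22 moved in opposite directions in the 2 kinds of library. From NSC to ENB the log2 fold change was 0.65 ± 0.28 in total mRNA and -0.79 ± 0.29 in ribosome-bound mRNA, and from ENB to LNB it was -0.48 ± 0.28 and 0.90 ± 0.27. Within the indexes the first step gave 0.42 and 0.93 in total mRNA and -1.16 in ribosome-bound mRNA, and the second -0.13 and -0.85 in total and 0.59 in ribosome-bound mRNA. The groups of the second step in total mRNA overlapped on the scale of all 27 libraries and did not on the scale of the 12 total libraries. From LNB to Neuron the change was -1.03 ± 0.28 in total mRNA (-1.31 within an index) and -0.27 ± 0.26 in ribosome-bound mRNA, where it was 0.02 with the second index as a term and the overlap again depended on the scale. Without ENB ribosome-bound replicate 2 the ribosome-bound changes around ENB were -0.49 and 0.61, and without replicate 1 they were -1.17 and 1.29. The 46 other large-subunit ribosomal protein genes shifted too. Their summed ribosome-bound CPM was 15751 to 16170 in NSC, 5753 to 6053 in ENB and 7566 to 9705 in LNB. In total mRNA the sums were 11204 to 13473, 11997 to 18052 and 9840 to 12617 CPM. From NSC to ENB in ribosome-bound mRNA, 43 of the 46 had a lower log2 fold change than Rpl22.

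Against control, Rpl22 differed by -0.12 ± 0.26 in NSC, -0.91 ± 0.27 in ENB, 0.69 ± 0.24 in LNB and 0.42 ± 0.26 in Neuron. The ENB libraries lay below all SVZ controls and the LNB libraries above all OB controls, while the NSC libraries overlapped their controls. The Neuron libraries overlapped the OB controls on the scale of all 27 libraries and lay above them on that of the 15 immunoprecipitation libraries. Within an index the values were 0.05, -1.11, 0.57 and 0.44. Relative to total mRNA the differences were -0.70 ± 0.31 in NSC, -1.97 ± 0.33 in ENB, -0.70 ± 0.27 in LNB and 0.06 ± 0.30 in Neuron. In NSC, ENB and LNB all ribosome-bound libraries lay below all total libraries. The pseudogene Rpl22-ps1 (chrX:8038573-8039017) held 0 to 16 reads per library, so few reads were assigned to it. Neither count table separates the tagged from the untagged Rpl22 transcript.

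**Figure D4:**
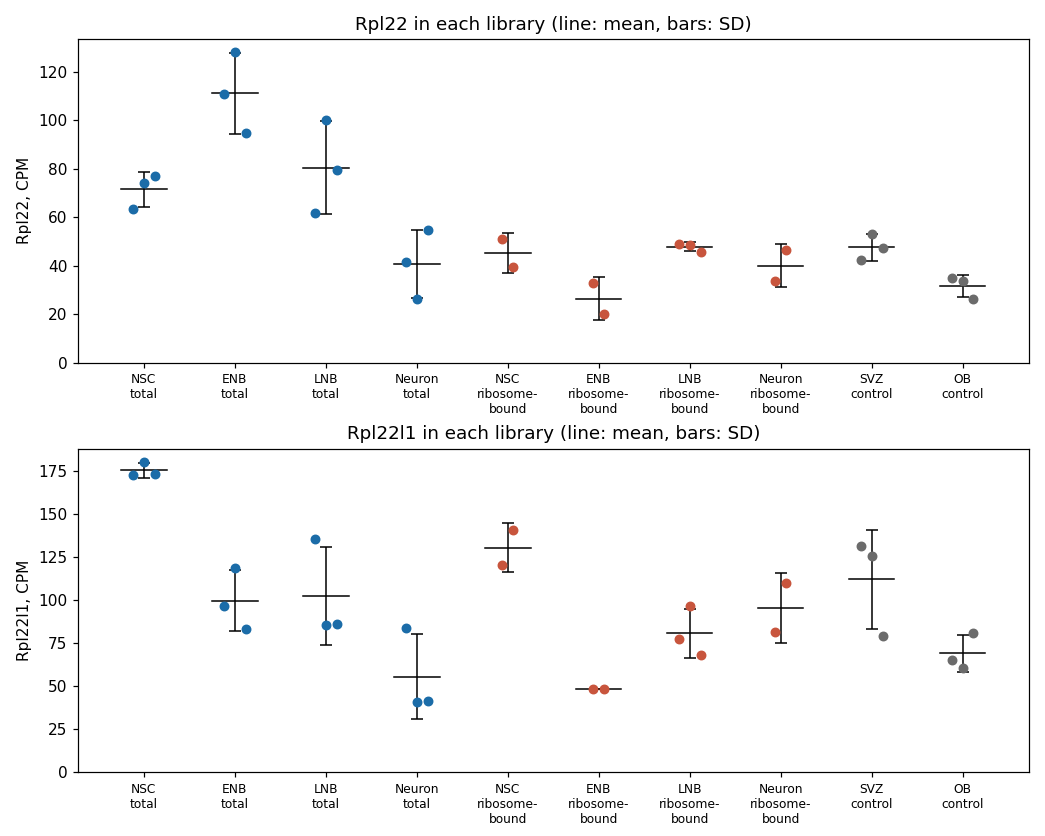
CPM of Rpl22 (upper panel) and Rpl22l1 (lower panel) in each library of the 10 groups, 1 point per library, with the group mean as a line and the SD as bars; axes start at 0. Rpl22 is highest in ENB total mRNA (94.6 to 128 CPM) and Rpl22l1 in NSC total mRNA (173 to 181 CPM), and both are lowest among the ribosome-bound groups in ENB.

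Rpl22l1, the paralog without a tag, was highest in stem cells. In total mRNA it stood at 173, 181 and 173 CPM in NSC, at 96.8, 119 and 83.5 in ENB, at 136, 85.4 and 86.4 in LNB and at 83.9, 40.7 and 41.7 in Neuron. All NSC libraries lay above all others and ENB overlapped LNB. Neuron had the lowest mean and overlapped ENB at its border (83.9 against 83.5 CPM). In ribosome-bound mRNA it stood at 120 and 141 CPM in NSC, 48.4 and 48.7 in ENB, 77.3, 96.5 and 68.4 in LNB and 81.3 and 110 in Neuron. NSC was again highest and ENB lowest, and LNB and Neuron overlapped. The SVZ controls stood at 132, 126 and 79.1 CPM and the OB controls at 65.3, 60.8 and 81.2.

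From NSC to ENB Rpl22l1 changed by -0.81 ± 0.30 in total mRNA and by -1.44 ± 0.28 in ribosome-bound mRNA, so the step had the same sign in both kinds of library. Within the indexes the values were -1.04 and -0.49 in total and -1.42 in ribosome-bound mRNA. From ENB to LNB it changed by 0.04 ± 0.30 and 0.77 ± 0.26, and from LNB to Neuron by -0.95 ± 0.31 and 0.23 ± 0.25. Within the indexes these steps gave -0.17 and -0.12 and then -0.66 in total mRNA, and 0.76 for the first in ribosome-bound mRNA. The last ribosome-bound step was -0.09 with the second index as a term. Against control the differences were 0.18 ± 0.25 in NSC, -1.26 ± 0.26 in ENB, 0.31 ± 0.23 in LNB and 0.55 ± 0.25 in Neuron. The ENB libraries lay below all SVZ controls, the NSC and LNB libraries overlapped their controls, and the Neuron libraries lay just above the OB controls (81.3 against 81.2 CPM at the border), with 0.09 within an index and 0.26 with the second index as a term. Relative to total mRNA the differences were -0.47 ± 0.30, -0.93 ± 0.31, -0.31 ± 0.27 and 0.88 ± 0.30 from NSC to Neuron. For Neuron the 2 kinds overlapped on the scale of all 27 libraries and did not on the scale of the 21 libraries of that fit.

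The paralogs were compared with each other per length, in TPM (length-corrected relative transcript abundance, deposited by the authors). In TPM Rpl22l1 was the more abundant in every library. In CPM, without length correction, Rpl22 was the higher of the 2 in every ENB total library. The same held in LNB total replicate 2 (100.0 against 85.4 CPM) and Neuron total replicate 3 (54.5 against 41.7 CPM). The shares below therefore depend on the length correction, whose part was not tested. Its share of the summed TPM of Rpl22 and Rpl22l1 was 79.1% ± 2.19 in NSC, 57.7% ± 3.24 in ENB, 68.1% ± 6.06 in LNB and 83.4% ± 4.46 in Neuron total mRNA (SD, n = 3 each). The values of the ENB libraries, 59.0%, 54.0% and 60.2%, lay below those of every other library. In ribosome-bound mRNA the share was 78.9% and 79.8% in NSC, 78.8% and 83.7% in ENB, 80.7%, 83.1% and 83.1% in LNB and 85.4% and 89.7% in Neuron. ENB therefore stood apart in total mRNA and not in ribosome-bound mRNA. The SVZ controls were at 74.9% ± 1.90 and the OB controls at 79.8% ± 2.62 (n = 3 each). The mean TPM of Rpl22 was 268 in ENB total mRNA and 48.8 in Neuron total mRNA, and that of Rpl22l1 672 in NSC and 257 in Neuron total mRNA.

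**Figure D5:**
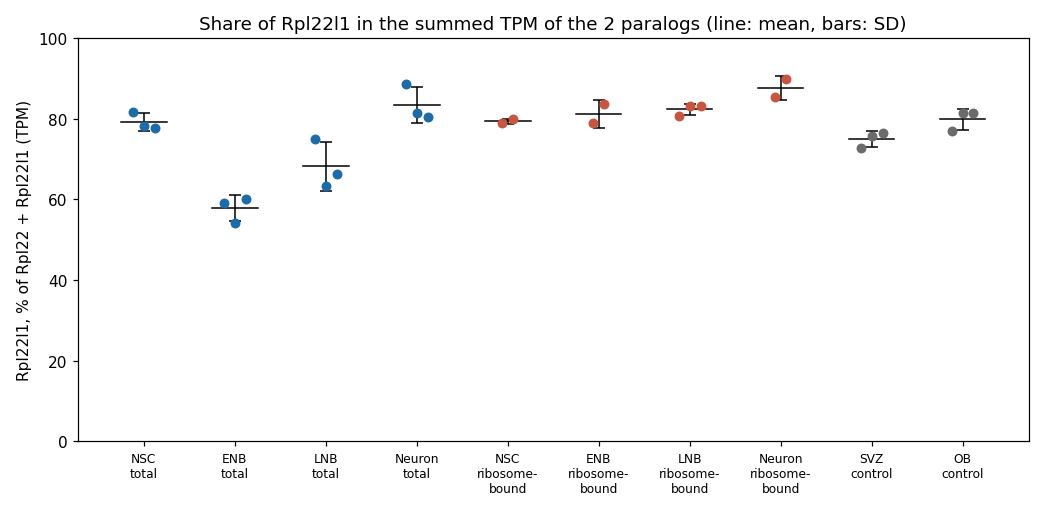
Rpl22l1 as a percentage of the summed TPM of Rpl22 and Rpl22l1 (vertical axis, from 0) in each library of the 10 groups, with the group mean as a line and the SD as bars. ENB total mRNA lies at 54.0% to 60.2%, below every other library, and the Neuron ribosome-bound libraries are at 85.4% and 89.7%.

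Among 48 large-subunit ribosomal protein genes ordered by mean TPM, Rpl22 ranked 44 to 47 in all 10 groups, so it was among the least abundant. Rpl22l1 ranked 22 to 42. The list without the paralogs holds 46 genes and gives the course of the other proteins of the subunit. In total mRNA 0 of 46 passed from NSC to ENB (median log2 fold change 0.25, all genes -0.01; 8 at an unadjusted p under 0.05 in edgeR and 0 called by DESeq2) and 1 was lower from ENB to LNB, Rpl4 (-0.79 ± 0.17, adjusted p = 0.031, edgeR; list median -0.32), which is named for its call. That count was 0 without any 1 of the libraries other than LNB total replicate 2, 2 without that library, and 0 with a replicate block. From LNB to Neuron 42 of 46 fell (median -1.63, all genes -0.18), beside 9.34% of all genes that fell. Rplp0, a protein of the ribosomal stalk, fell by 2.07 ± 0.21 and Rpl11, which with Rpl5 binds the 5S RNA, by 1.73 ± 0.26 (adjusted p = 0.00017 and 0.0012, edgeR). Rpl5 was at -0.70 ± 0.25 (adjusted p = 0.079, edgeR). Of all genes called at this step 937 of 2580 were higher, and 1193 of 2465 with RLE size factors, another scaling.

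Rpl22 and Rpl22l1 can be set beside that list. From NSC to ENB in total mRNA Rpl22 lay above 44 and Rpl22l1 below all 46 of the list genes. From LNB to Neuron both lay above 41 of 46, 0.60 and 0.68 above the list's median. Over the 10 group means the median Pearson's r with the list genes was 0.636 for Rpl22 (all genes -0.0499), 0.768 for Rpl22l1 (all genes -0.0290) and -0.0932 for Esr1 (all genes -0.119). The genes most like Rpl22 were Tchp (r = 0.963), Gm7729 (0.955) and Gm8652 (0.952), and Gm33051 (0.962) and Gm5617 (0.947) were among those most like Rpl22l1.

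The list was then compared between each immunoprecipitate and its controls. In ENB ribosome-bound mRNA 37 of 46 were lower than in the SVZ controls (median -1.58, all genes -0.04), beside 0.813% of all genes that were lower. Rpl39 was at -2.71 ± 0.40 and Rpl11 at -1.48 ± 0.31 (adjusted p = 0.0028 and 0.024, edgeR). This count was 0 without ENB ribosome-bound replicate 2 and 15 without replicate 1. Rpl22 and Rpl22l1, at -0.91 and -1.26, lay 0.67 and 0.32 above the list's median there. Oligodendrocyte, striatal neuron and microglial markers were all present in both groups at this comparison: striatal projection neuron markers summed to 4547 to 4650 CPM in ENB ribosome-bound mRNA and 3754 to 5248 in the SVZ controls, and microglial markers to 383 to 430 and 213 to 316 CPM. Their part in the difference was not tested.

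In NSC 4 list genes were higher and 2 lower than in the control (median -0.13), in LNB 5 were higher (median 0.07) and in Neuron 3 were higher and 7 lower (median -0.21). Among all genes 8.75% were higher and 6.59% lower in NSC, 7% higher in LNB, and 11.6% higher and 15.7% lower in Neuron, so the counts in NSC and Neuron were near or below those shares. Rpl18 was at 1.31 ± 0.28 in NSC (adjusted p = 0.0070, edgeR). Rpl27 was at 1.07 ± 0.28 in NSC, 1.26 ± 0.26 in LNB and 1.27 ± 0.28 in Neuron (adjusted p = 0.019, 0.012 and 0.0046, edgeR), and Rpl37a at -1.32 ± 0.31 in Neuron (adjusted p = 0.0059, edgeR). These counts rest on single libraries: the NSC count ran from 0 without NSC ribosome-bound replicate 2 to 9 without SVZ control 1, and was 1 without SVZ control 2 and 3 without NSC ribosome-bound replicate 1 or SVZ control 3. The LNB count was at most 2 without any 1 of its 6 libraries. The Neuron count was 3 without Neuron ribosome-bound replicate 2 and 5 without replicate 1 or OB control 1. Of all genes called for LNB against control 1335 of 1918 were higher, and 663 of 1425 with RLE size factors, under which 1 list gene was called.

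Relative to total mRNA, the median log2 difference of the list was 0.20 in NSC, -1.33 in ENB, -0.48 in LNB and 0.85 in Neuron, where all 46 were above 0. Rpl22, at 0.06 ± 0.30 in Neuron, lay below all 46 list genes, and in NSC it lay below 44. Rpl22l1, at 0.88 ± 0.30 in Neuron, lay 0.02 above the list's median. In ENB Rpl22 lay 0.64 below and Rpl22l1 0.40 above it. Within the 1 index that held both kinds of Neuron library the difference was 0.34 for Rpl22, 1.15 for Rpl22l1 and 1.86 for Esr1.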

How the data were processed

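The members and gene lists were chosen with earlier results of these data known. Polyadenylated mRNA was amplified with Smart-seq2, per the labels' protocols. The deposited raw counts are whole reads per Ensembl gene; the tool that made them is not given in the sources used here. The deposited expected counts are estimated counts and were rounded to whole numbers where used. The deposited TPM values were scaled by the authors. RSEM 1.2.21, Bowtie2 2.2.6 and GRCm38 are named in the submitters' processing notes. Of 45195 genes, 44548 matched a symbol by ID. The 92 TPM rows that carry no gene ID were left out, and 0 data columns lacked a sample. Titles and descriptions set the group of the ribosome-bound Neuron libraries, although their sample-type field reads total mRNA.

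Tests ran in R 4.3.3 with edgeR 4.0.16 on the raw counts (TMM, filterByExpr, quasi-likelihood F test, Benjamini-Hochberg adjustment over all genes tested, threshold 0.05), in separate fits of the 12 total, the 15 immunoprecipitation and the 21 total and ribosome-bound libraries. All 3 members passed the filter in each. Levels and overlaps are CPM with TMM over 27 libraries. ENB and LNB share some animals, which the main fits leave out, since they treat each library as independent. The p-values weigh a difference against the spread between these libraries. Alternatives were RLE size factors, no filter, DESeq2 1.42.0, expected counts, a replicate block, the second index sequence as a term and each library left out. Further genes named are every receptor, fixed members of each list, the highest and lowest ribosomal genes and the 3 most like each member, of which 1 is not reported here. The fits were tested on simulated data.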

Additional observations from a re-analysis of the deposited data

Results flagged for a closer look

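Rpl22 moved in opposite directions in the 2 kinds of library from NSC to ENB, by 0.65 on the log2 scale in total mRNA and by -0.79 in ribosome-bound mRNA, and in both kinds no library of the first group overlapped the second. The ribosome-bound fall was not particular to Rpl22, which lay above 43 of 46 other large-subunit ribosomal protein genes at that step. Against control, Rpl22 was at 0.69 in LNB and at -0.91 in ENB. Rpl22l1 was at 0.55 in Neuron and at -1.26 in ENB against control, with the Neuron libraries close to the border of the controls. For Esr1, ribosome-bound against total mRNA was at 1.90 in Neuron, against -0.34 in NSC and -1.63 in ENB. In each of these pairs all libraries of 1 contrast moved one way and all of the other the opposite way, and the difference between the contrasts was not tested. The ENB and LNB contrasts use different control tissues, and the ribosome-bound values of ENB rest on 2 libraries.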

How the results depend on the processing

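Shifts were measured against the SD of log2 CPM pooled within the 2 groups compared, so larger shifts stay under it where libraries vary more. Esr1 against the SVZ controls, which held 0 to 44 reads, ran from 0.58 to 3.07 in NSC and from 2.3 to 4.86 in ENB. Of the member changes under other settings, 226 moved by less than 1 SD, 13 moved further and 1, which had exceeded 1 SD, changed sign: Rpl22 in ribosome-bound mRNA from LNB to Neuron, at -0.27 and at 0.02 with the second index as a term. Smaller changes also crossed 0. With the second index these were Rpl22l1 at that step (0.23 to -0.09), Rpl22 in NSC against control (-0.12 to 0.10) and Rpl22l1 from ENB to LNB in total mRNA (0.04 to -0.06, and -0.02 with expected counts). Rpl22 in Neuron ribosome-bound against total mRNA (0.06) was at -0.04 with RLE and with DESeq2. The cause was not tested for any of these shifts. With the second index as a term, Rpl22l1 was further at -1.22 from NSC to ENB in ribosome-bound mRNA, Esr1 at -1.80 from LNB to Neuron and Rpl22l1 at 0.26 in Neuron against control. With expected counts, Rpl22l1 was at -1.25 from NSC to ENB in ribosome-bound mRNA, Esr1 at 5.55 in LNB and 5.01 in Neuron against control, and in NSC ribosome-bound against total mRNA Rpl22 was at -0.37 and Esr1 at -0.23. Rpl22 in LNB against control was at 0.53 with RLE size factors and at 0.53 with DESeq2. Same-numbered libraries did not deviate together (highest r 0.0551 over 18 pairs in total mRNA and 0.0845 over 33 pairs in the immunoprecipitates). ENB and LNB ribosome-bound replicates 1 and 2 do share animals by number, and their r was only 0.0845 and -0.0108. The check therefore cannot decide whether other libraries are paired. Numbers were not taken to pair the libraries in general. With the replicate block the ribosome-bound step from ENB to LNB was at 0.95 for Rpl22, 0.82 for Rpl22l1 and 1.69 for Esr1. With the replicate block Esr1 in NSC ribosome-bound against total mRNA was at -0.45, and 0 ribosomal genes were called from ENB to LNB and 6 in Neuron against control. Ribosomal genes called were 2 (DESeq2) and 0 (second index) from ENB to LNB, 1 (second index) in NSC, 1 (RLE) and 3 (no filter) in LNB and 16 (DESeq2) in Neuron against control. Over all genes, DESeq2 called 3566, 1994 and 4155 genes in the 3 steps in total mRNA against 1772, 663 and 2580 with edgeR, 858 against 290 in ENB and 3063 against 1918 in LNB against control. Without the filter edgeR called 636 in ENB, with the second index 155 from ENB to LNB and 1176 (against 2925) in NSC, and with the replicate block 205 from ENB to LNB and 193 in ENB.

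Leaving out 1 library at a time gave these ranges. Rpl22 ran from 0.43 to 0.76 from NSC to ENB in total mRNA. In ribosome-bound mRNA Rpl22 ran from -1.17 to -0.49, Rpl22l1 from -1.59 to -1.29 and Esr1 from 1.22 to 2.18 from NSC to ENB, Rpl22 from 0.61 to 1.29 and Esr1 from 1.02 to 1.97 from ENB to LNB, and Rpl22 from -0.52 to -0.07 from LNB to Neuron. Against control Esr1 ran from 1.20 to 3.75 in NSC, 2.98 to 5.59 in ENB, 6.72 to 8.36 in LNB and 6.15 to 7.78 in Neuron, and Rpl22 from -1.27 to -0.59 in ENB. Against total mRNA Rpl22 ran from -0.87 to -0.47, Rpl22l1 from -0.53 to -0.33 and Esr1 from -0.37 to -0.22 in NSC, and Rpl22 from -2.36 to -1.64 and Esr1 from -2.15 to -1.23 in ENB. Ribosomal genes called ran from 0 to 2 from ENB to LNB, and against control from 0 to 9 in NSC, 0 to 37 in ENB, 0 to 2 in LNB and 3 to 8 in Neuron. Leaving out 1 library also took Rpl22l1 from ENB to LNB in total mRNA to -0.08 (ENB 3) and -0.23 (LNB 1), Rpl22 in NSC against control to 0.05 (NSC 2), Rpl22l1 there to -0.01 (SVZ control 3), Esr1 in LNB ribosome-bound against total to -0.15 (LNB total 3), and Rpl22 in Neuron ribosome-bound against total to -0.23 (Neuron total 2) and -0.27 (Neuron ribosome-bound 2). The estrogen-list counts were rerun under alternatives chosen after seeing the data. In the controls depth limits Esr1, which held 0 to 44 reads.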
